A study of Homo sapiens with 18 samples.

Results

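The 47 genes described here encode the machinery that copies DNA in S phase, from the proteins that license replication origins to those that supply nucleotides and repackage the new DNA. They were chosen by name, with earlier results of these data known, from the 27064 genes of the deposited quantifications. Their shares are thus not independent of the data. All 47 passed the filter on low counts in both experiments. Their mRNA was measured by RNA-seq in 786-O, a cell line established from a clear-cell carcinoma of the kidney and without working VHL protein. Short hairpin RNAs lowered either USP13, an enzyme that removes ubiquitin, or ZHX2, a zinc-finger and homeobox protein of the nucleus.

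Hairpins sh52 and sh50 were set against a control hairpin, shCtrl, in the USP13 experiment, and sh45 and sh43 against separate shCtrl libraries in the ZHX2 experiment. Each of the 6 groups had 3 libraries, all from the same cell line. The labels do not say whether these came from separate cultures, so the p-values measure the spread between libraries, which may be technical. Times after introduction of the hairpins are not given in the sources used here. The treatment protocol in the labels lists hairpins 43 and 45 under USP13, whereas titles and characteristics assign them to ZHX2, and the targeted mRNAs were therefore checked. Levels are given as CPM, counts relative to the scaled total count of the library. USP13 mRNA measured 14.8, 18.1 and 17.9 CPM under sh52, 16.8, 17.1 and 20.5 CPM under sh50 and 36.9, 34.7 and 31.8 CPM in shCtrl of its experiment. ZHX2 mRNA measured 90.8, 82.1 and 79.6 CPM under sh45, 38.6, 43.4 and 38.6 CPM under sh43 and 340.3, 344 and 344 CPM in shCtrl of its experiment. ZHX2 mRNA thus stood lower under both hairpins that the titles assign to it, and further down under sh43 than under sh45. In the same libraries USP13 mRNA measured 46.1, 49.8 and 43.5 CPM under sh45, 31.7, 38.8 and 35.3 CPM under sh43 and 40.3, 39.02 and 44.7 CPM in shCtrl, so that sh45 overlapped the controls and sh43 lay just below them.

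Total estimated counts per library ranged from 11192561 to 16511290. Mitochondrial rRNA held 3.69 ± 0.136% of the counts under sh52, 4.25 ± 0.161% under sh50 and 2.62 ± 0.0781% in shCtrl, and 3.09 ± 0.26% under sh45, 1.54 ± 0.031% under sh43 and 1.25 ± 0.0724% in the other shCtrl (SD, n = 3 each). One library, sh52 replicate 1, stood apart with counts for 15481 genes, against at least 15858 in every other library. Of 6 kidney and clear-cell carcinoma markers, 5 were present at 1 TPM (a level scaled for transcript length and library total) or more in every group, while CA9 lay between 0 and 1.13 TPM. The defining leukocyte markers PTPRC and CD3E reached at most 0.0485 TPM, and the defining endothelial markers PECAM1, VWF, CDH5 and KDR at most 0.13 TPM. Some other markers lay higher in the sh43 libraries than in shCtrl, while CD68 lay lower. ESAM, an adhesion molecule of endothelial and other cells, measured 2.38 to 3.84 TPM under sh43 against 0.449 to 1.11 TPM in shCtrl (log2 change 1.98, edgeR adjusted p = 2.75e-05), and made up most of an endothelial sum of 2.87 to 4.08 TPM under sh43 against 0.617 to 1.17 TPM in shCtrl. CD14, a monocyte marker, measured 0.655 to 2.04 TPM under sh43 against 0.0869 to 0.192 TPM in shCtrl and was too low to be tested there. CD68, which macrophages and many tumour lines express, made up most of the leukocyte sum, which was 39.1 to 41.6 TPM under sh52, 19.5 to 25.6 TPM under sh50 and 31.1 to 35.1 TPM in shCtrl. That sum was 54.0 to 60.2 TPM under sh45, 18.6 to 20.0 TPM under sh43 and 41.1 to 47.8 TPM in the ZHX2 experiment's shCtrl. CD68 itself fell under sh43 (log2 change -1.27), with 17.4 to 18 TPM against 40.6 to 47.4 TPM in shCtrl. The part of these markers in the results was not tested.

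Replication is prepared in G1, when the origin recognition complex with CDC6 and CDT1 loads the MCM helicase onto origins. At the start of S phase CDC45 and the GINS complex activate the helicase, and primase, DNA polymerases, the PCNA clamp and its loader then copy both strands. Many of these genes are transcribed from the end of G1 under E2F factors held back by the RB protein, and clear-cell renal carcinomas without VHL carry stabilised HIF-2α, whose outputs include cyclin D1.

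All 47 genes were present in control cells. E2F2, an activating E2F factor, had the lowest control level of the set per transcript length, with 1.101, 1.20 and 0.992 TPM in the USP13 experiment and 3.74, 2.97 and 3.21 TPM in the ZHX2 experiment. POLD2, an accessory subunit of polymerase delta, was highest in the USP13 controls, with 94.7, 103 and 97.5 TPM. PCNA, the sliding clamp that holds polymerases on DNA, was highest in the ZHX2 controls, with 170.2, 159 and 172 TPM. For 46 of the 47 genes every control library of the ZHX2 experiment lay above every control library of the USP13 experiment, and the median ratio of the control means was 2.131. The only gene below was POLE2, a subunit of polymerase epsilon, with a ratio of 0.734, and the highest ratio was 3.471 for E2F1. The same count was not made over all genes, so whether this is particular to the replication genes was not tested. The experiments have their own libraries throughout, so a difference in the cells and a difference in handling cannot be told apart, and the results below use each experiment's own controls.

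**Figure D1:**
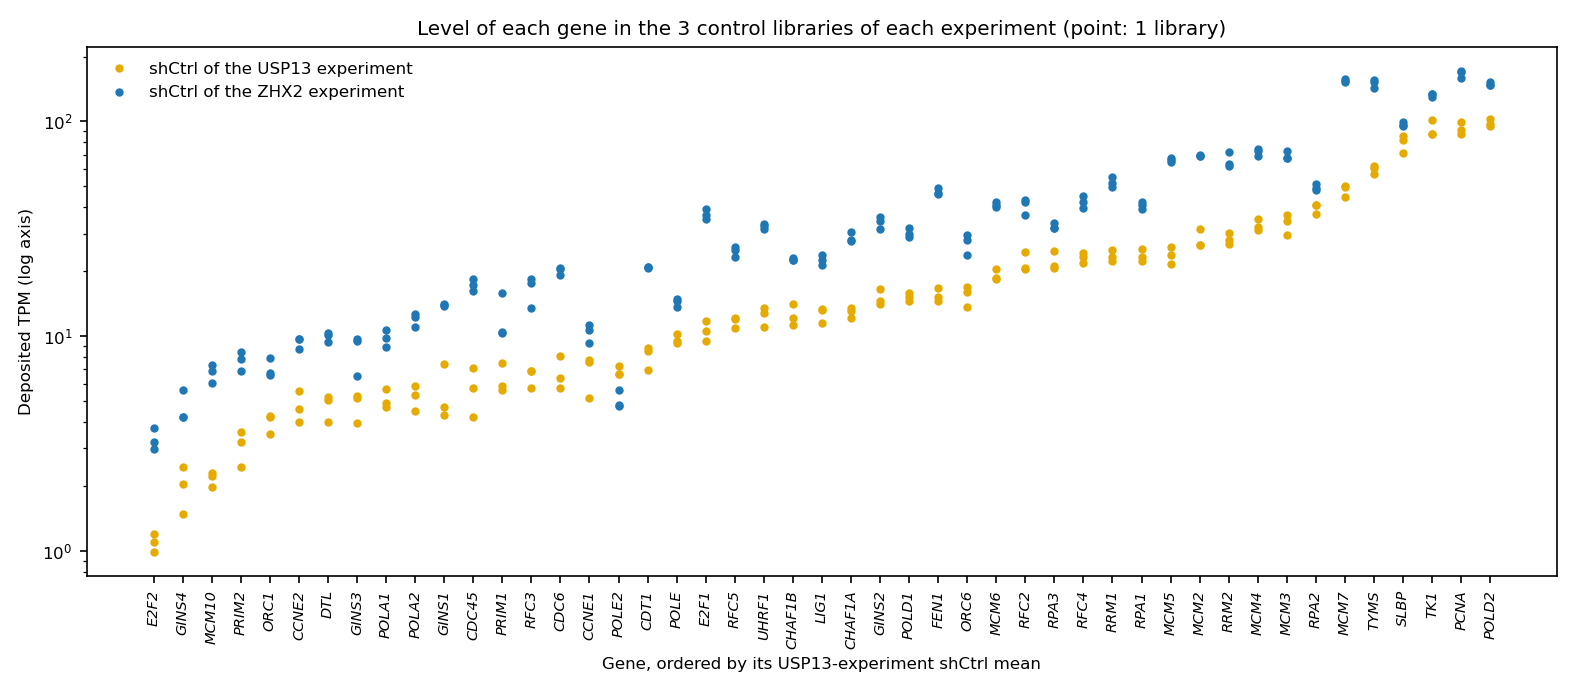
Deposited TPM (log axis) of the 47 genes in the 3 shCtrl libraries of each experiment, 1 point per library, ordered by the mean of the USP13 experiment's controls. The points of the ZHX2 experiment lie above those of the USP13 experiment for 46 genes, and only for POLE2 do they all lie below. The same count was not made over all genes.

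Under sh50, a USP13 hairpin, most of the replication genes rose, and none fell. By edgeR's quasi-likelihood test with an adjusted p under 0.05 over all genes, 27 of the 47 rose, where 10.2% of the 13708 genes tested rose and 11.3% fell. Under sh52, the other USP13 hairpin, 3 rose and 1 fell, where 5.45% of all genes rose and 6.57% fell. These 4 calls came down to 1 without shCtrl replicate 2, and to 2 without sh52 replicate 1, sh52 replicate 3 or shCtrl replicate 1. The median log2 change of the 47 genes was 0.09 under sh52 and 0.33 under sh50, while the median over all genes was within 0.003 of 0 under each. USP13 mRNA itself had log2 changes of -1.03 under sh52 and -0.92 under sh50. The summed level of the 47 genes was 1441 ± 23.3 CPM under sh52, 1676 ± 38.03 CPM under sh50 and 1363 ± 48.91 CPM in shCtrl (SD, n = 3 each). Every sh50 sum lay above every sum of the other groups. In bulk RNA a changed share of cells in S phase and a changed amount of RNA per cell cannot be told apart. The part that the mitochondrial rRNA share, which was higher under both hairpins than in shCtrl, had in these changes was not tested.

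In the ZHX2 experiment the hairpins also parted. Under sh43, which lowered ZHX2 mRNA further, 37 of the 47 genes rose and 2 fell, in a comparison where 33.5% of 13597 genes rose and 35.3% fell. Under sh45, 14 rose and 6 fell, where 25.3% of all genes rose and 27.3% fell, so that this count of higher genes is close to the background. The median log2 change was 0.08 under sh45 and 0.40 under sh43, against -0.007 and -0.02 over all genes. Summed levels were 2800 ± 73.76 CPM under sh45, 3395 ± 87.93 CPM under sh43 and 2669 ± 32.81 CPM in shCtrl (SD, n = 3 each). All sh45 and sh43 sums lay above the control sums in CPM, and all sh43 sums above all sh45 sums. In TPM, which is scaled for transcript length, the sh45 sums were 1807, 1855 and 1817. Those lay below the control sums of 2002, 1984 and 2038 TPM, while the sh43 sums of 2382, 2467 and 2400 TPM lay above. The direction of the sh45 sum thus depended on the measure. The sh45 libraries had the higher share of mitochondrial rRNA of this experiment, whose part was not tested.

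Of the 47 genes only RRM2 rose under all 4 hairpins, and the call of RRM2 under sh52 was lost without sh52 replicate 1 or shCtrl replicate 1 (edgeR, adjusted p from 0.00212 to 0.145 over the alternatives). Another 11 rose under 3 of them, namely MCM4, CDC6, CDT1, CDC45, ORC6, RFC4, POLA2, POLD1, POLE, E2F1 and CHAF1A. There were 15 genes that rose under 2 hairpins and 14 that rose under 1. Among the 6 that rose under none, MCM6 and POLA1 fell under at least 1 hairpin, while RFC5, POLE2, PRIM1 and CCNE2 passed under none in either direction. Under sh50 and sh43, which have separate controls, 23 genes rose in common, 85.2% of the 27 higher under sh50 and 62.2% of the 37 higher under sh43, where 78.7% of all 47 rose under sh43 and 57.4% under sh50. How many of all genes tested rose under each number of hairpins, or under sh50 and sh43 in common, was not counted. Taken singly, 5.45% of them rose under sh52, 10.2% under sh50, 25.3% under sh45 and 33.5% under sh43. Within the ZHX2 experiment 13 genes rose under both hairpins, where 14.1% of all genes did, MCM6 fell under both, where 15.9% did, and 4 moved in opposite directions, where 9.33% did. The count of opposite moves is thus close to its background, and that of falls under both is below it. Within the USP13 experiment CDC6, MCM4 and RRM2 rose under both, where 3.26% of all genes did, and none fell under both, where 4.16% did. Counted by overlap alone, all sh52 libraries lay above all controls for 11 of the 47 genes and below for 1, where 13.4% of all genes lay above and 14.4% below. For sh50 these counts were 30 and 0 (18.6% and 19.6% of all genes), for sh45 17 and 8 (27.9% and 29.3%), and for sh43 36 and 2 (34.4% and 35.9%). The same control libraries stand behind both hairpins of a target.

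**Figure D2:**
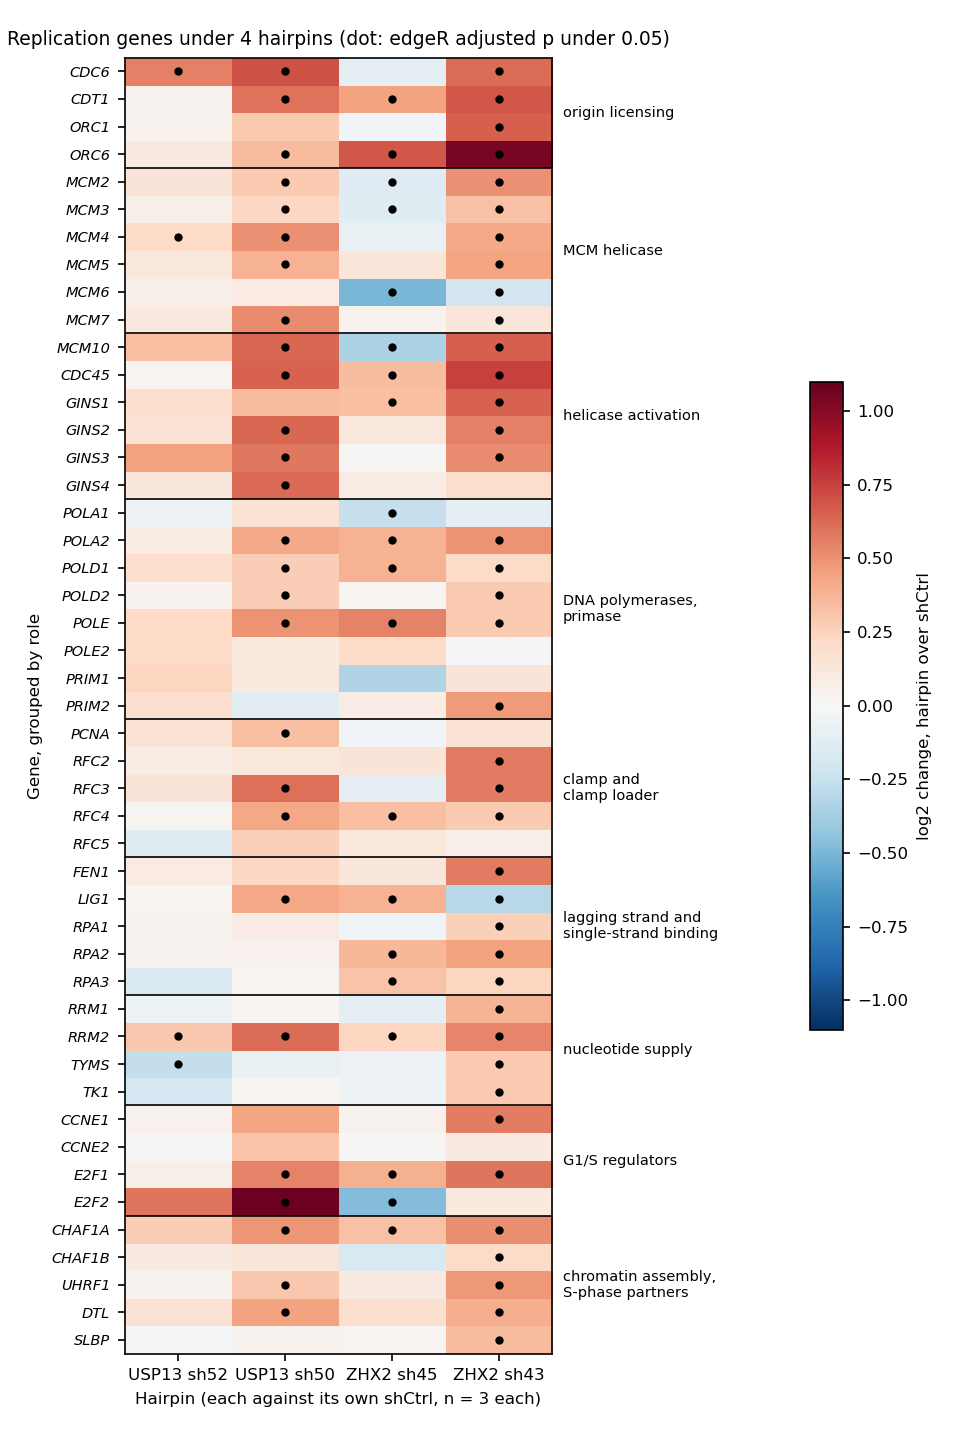
Log2 change of each of the 47 genes, grouped by role, under each hairpin against the shCtrl libraries of its own experiment, with calls at an edgeR adjusted p under 0.05 marked. Most genes are higher under sh50 (27 called) and sh43 (37 called), and few pass under sh52 (3 higher, 1 lower), while sh45 holds 14 higher and 6 lower.

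The promoters of these genes are known for E2F elements, and windows from 250 bases before to 50 bases after the RefSeq start (GRCh38.p14) were matched for 41 of the 47. Those without a window were MCM4, MCM5, GINS4, RPA2, RPA3 and CCNE2. The letters searched on both strands were TTTGGCGC, TTTCCCGC, TTTCGCGC and TTTGCCGC, whose matches can overlap one another. Of these 41 genes 21 held at least 1 match, 51.2%, against 3.99% of 27305 genes with windows of the same length. The NF-Y box CCAAT was found in 58.5% of the 41 and 39.7% of all genes. The letters TTTGAA, the core of the cell cycle element that mitotic genes carry, were in the window of RRM1 alone, 2.44%, against 18.2% of all genes and 61.9% of 21 mitosis genes. Windows of 4 genes are shown 5′ to 3′ on the gene's strand, with E2F matches in capitals, as examples of differing responses. CDC6 (chr17:40287629-40287928, plus strand) rose under both USP13 hairpins, MCM6 (chr2:135876394-135876693, minus strand) fell under both ZHX2 hairpins, and MCM2 (chr3:127598161-127598460, plus strand) and LIG1 (chr19:48170295-48170594, minus strand) moved in opposite directions under the ZHX2 hairpins.
CDC6: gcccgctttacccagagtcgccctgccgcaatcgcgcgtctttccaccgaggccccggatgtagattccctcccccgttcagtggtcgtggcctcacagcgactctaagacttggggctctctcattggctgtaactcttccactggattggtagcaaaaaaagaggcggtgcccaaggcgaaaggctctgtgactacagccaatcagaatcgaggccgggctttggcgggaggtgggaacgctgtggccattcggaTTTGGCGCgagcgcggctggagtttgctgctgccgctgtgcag
MCM6: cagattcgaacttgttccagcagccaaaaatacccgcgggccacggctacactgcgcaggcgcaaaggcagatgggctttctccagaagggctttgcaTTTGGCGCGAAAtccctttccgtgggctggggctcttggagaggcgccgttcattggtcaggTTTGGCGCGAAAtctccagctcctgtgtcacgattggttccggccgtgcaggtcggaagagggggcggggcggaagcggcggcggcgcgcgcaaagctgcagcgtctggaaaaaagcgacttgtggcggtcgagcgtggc
MCM2: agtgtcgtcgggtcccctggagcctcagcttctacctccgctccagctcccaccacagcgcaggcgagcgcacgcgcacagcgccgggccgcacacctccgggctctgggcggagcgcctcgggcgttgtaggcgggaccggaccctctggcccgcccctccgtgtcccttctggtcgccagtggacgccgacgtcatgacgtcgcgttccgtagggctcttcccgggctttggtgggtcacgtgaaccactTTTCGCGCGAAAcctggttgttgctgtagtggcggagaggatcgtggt
LIG1: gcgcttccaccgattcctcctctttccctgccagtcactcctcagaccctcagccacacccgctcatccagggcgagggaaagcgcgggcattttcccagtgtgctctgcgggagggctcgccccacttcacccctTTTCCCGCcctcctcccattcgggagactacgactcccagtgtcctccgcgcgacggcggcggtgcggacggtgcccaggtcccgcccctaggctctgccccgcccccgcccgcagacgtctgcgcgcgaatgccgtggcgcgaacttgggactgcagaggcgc
The CDC6 match lies from 8 to 15 bases and the overlapping MCM2 pair from 3 to 14 bases after the start. MCM6 holds 4 matches in 2 overlapping pairs, from 152 to 141 and from 90 to 79 bases before the start, and the LIG1 match lies from 114 to 107 bases before it. These 4 were picked for their differing responses, so their directions say nothing about the element. Among genes with a match 16 of 21 rose under sh50, and among those with a window but no match 8 of 20 did, with median log2 changes of 0.428 and 0.267. Under sh43, 15 of 21 with a match rose and 2 fell, while 18 of 20 without rose and none fell. Under sh45, 6 with a match rose and 5 fell, while 6 without rose and 1 fell. Under sh52, 1 with a match rose and 1 fell, while 1 without rose and none fell. Over all genes 10.2% rose and 11.3% fell under sh50, and 33.5% rose and 35.3% fell under sh43. Those shares were 25.3% and 27.3% under sh45, and 5.45% and 6.57% under sh52. Both sh45 counts of higher genes are close to that background. The difference between genes with and without a match was not tested.

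Origin licensing genes rose under sh43 in every case, and in part elsewhere. Of the 4 genes of this role 4 rose under sh43, 2 under sh45, 3 under sh50 and 1 under sh52. Over all genes 33.5% rose under sh43, 25.3% under sh45, 10.2% under sh50 and 5.45% under sh52. CDC6, the ATPase that helps the origin complex load the helicase, measured 19.2, 13.97 and 17.4 CPM under sh52, 14.8, 18.4 and 22.5 CPM under sh50 and 13.6, 10.9 and 10.1 CPM in shCtrl. Neither hairpin's libraries overlapped the controls, while sh52 and sh50 overlapped each other (sh52 log2 change 0.55, SE 0.15, edgeR adjusted p = 0.0166). Under sh50 CDC6 rose as well (log2 change 0.70, SE 0.15, edgeR adjusted p = 0.00107). In the ZHX2 experiment CDC6 measured 29.2, 32.1 and 31.1 CPM under sh45, 48.6, 54.8 and 48.5 CPM under sh43 and 33.7, 34.5 and 31.02 CPM in shCtrl. Only the sh43 libraries stood apart (log2 change 0.62, SE 0.08, edgeR adjusted p = 5.73e-08), and the sh45 libraries overlapped the controls. CDT1, the partner of CDC6 in helicase loading, measured 12.02, 12.4 and 12.8 CPM under sh52, 19.1, 17.9 and 17.9 CPM under sh50 and 10.1, 12.6 and 13.5 CPM in shCtrl. All sh50 libraries were above the other groups, and sh52 and shCtrl overlapped (sh50 log2 change 0.60, SE 0.12, edgeR adjusted p = 0.000772). With ZHX2 hairpins CDT1 measured 42.7, 38.2 and 39.7 CPM under sh45, 46.3, 49.2 and 46.97 CPM under sh43 and 29.6, 30.2 and 29.2 CPM in shCtrl. The 3 groups did not overlap, with control lowest (sh45 log2 change 0.44, SE 0.07, edgeR adjusted p = 1.32e-05, and sh43 log2 change 0.68, SE 0.07, edgeR adjusted p = 4.52e-09).

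ORC6, the smallest subunit of the origin recognition complex, had the largest log2 change of the set under both sh45 and sh43. It measured 34.5, 35.9 and 35.8 CPM under sh45, 43.4, 45.9 and 46.8 CPM under sh43 and 22.5, 19.9 and 23.5 CPM in shCtrl. The groups did not overlap in any pair, and ORC6 rose under sh45 (log2 change 0.69, SE 0.08, edgeR adjusted p = 6.64e-08) and under sh43 (log2 change 1.04, SE 0.08, edgeR adjusted p = 6.44e-12). With USP13 hairpins it measured 15.4, 14.6 and 12.4 CPM under sh52, 16.6, 17.7 and 16.2 CPM under sh50 and 13.2, 14.3 and 11.96 CPM in shCtrl. The sh50 libraries lay above the controls (log2 change 0.35, SE 0.12, edgeR adjusted p = 0.0396). ORC1, the largest subunit and an ATPase, measured 12.2, 11.1 and 11.98 CPM under sh45, 18.5, 20.5 and 17.6 CPM under sh43 and 13.3, 11.8 and 11.05 CPM in shCtrl. It rose under sh43, whose libraries stood above all others (log2 change 0.66, SE 0.11, edgeR adjusted p = 9.55e-06), while sh45 and shCtrl overlapped. Among these calls the call of CDC6 under sh52 was lost without sh52 replicate 1, sh52 replicate 3, shCtrl replicate 2 or shCtrl replicate 3 (edgeR, adjusted p from 0.00078 to 0.0883 over the alternatives). Likewise that of ORC6 under sh50 was lost without sh50 replicate 1, sh50 replicate 2, sh50 replicate 3, shCtrl replicate 1 or shCtrl replicate 3 and with DESeq2 (edgeR unless named, adjusted p from 0.0242 to 0.139 over the alternatives).

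The MCM helicase subunits, which form the ring that unwinds DNA, rose together under sh50 and sh43 apart from MCM6. Under sh50, 5 of the 6 rose, where 10.2% of all genes did. Under sh43 the same count rose and MCM6 fell, where 33.5% of all genes rose and 35.3% fell. Under sh52, MCM4 alone rose, where 5.45% of all genes did. Under sh45 no subunit rose and MCM2, MCM3 and MCM6 fell, where 25.3% of all genes rose and 27.3% fell. MCM4 measured 108, 109 and 108 CPM under sh52, 125, 134 and 136 CPM under sh50 and 97.4, 91.03 and 90.9 CPM in shCtrl. The 3 groups did not overlap, with sh50 highest (sh52 log2 change 0.22, SE 0.06, edgeR adjusted p = 0.0139, and sh50 log2 change 0.50, SE 0.06, edgeR adjusted p = 6.56e-07). With ZHX2 hairpins MCM4 measured 186, 181 and 184 CPM under sh45, 255, 261 and 264 CPM under sh43 and 196, 190.5 and 197 CPM in shCtrl. It rose under sh43 (log2 change 0.42, SE 0.04, edgeR adjusted p = 5.87e-09), and under sh45 its libraries lay just below the controls without passing the test (log2 change -0.08, SE 0.05, edgeR adjusted p = 0.122).

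MCM6 was the only gene of the 47 that fell under both ZHX2 hairpins. It measured 55.4, 62.7 and 61.4 CPM under sh45, 70.8, 75.3 and 74.3 CPM under sh43 and 87.1, 86.6 and 80.6 CPM in shCtrl. The groups did not overlap, with sh45 lowest (sh45 log2 change -0.50, SE 0.06, edgeR adjusted p = 2.21e-07, and sh43 log2 change -0.21, SE 0.06, edgeR adjusted p = 0.00516). With USP13 hairpins MCM6 measured 45.3, 39.6 and 45.2 CPM under sh52, 42.6, 47.02 and 43.7 CPM under sh50 and 39.6, 44.4 and 41.1 CPM in shCtrl, in 3 overlapping groups. MCM2, which also binds histones H3 and H4, measured 114, 123 and 122 CPM under sh45, 182, 188 and 192 CPM under sh43 and 130.4, 136 and 129 CPM in shCtrl. It rose under sh43 (log2 change 0.51, SE 0.05, edgeR adjusted p = 2.14e-09) and fell under sh45 (log2 change -0.14, SE 0.05, edgeR adjusted p = 0.0232), with no overlap between groups. MCM3 behaved alike in direction, with 104, 113 and 105 CPM under sh45, 147, 156 and 140.0 CPM under sh43 and 114, 119 and 121 CPM in shCtrl. MCM3 rose under sh43 (log2 change 0.32, SE 0.06, edgeR adjusted p = 1.24e-05), and the sh45 change of -0.13 was close to the threshold (edgeR, adjusted p = 0.0493).

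MCM7, whose gene also hosts a microRNA cluster, measured 82.5, 87.6 and 93.3 CPM under sh52, 116, 118 and 115 CPM under sh50 and 73.4, 83.3 and 87.1 CPM in shCtrl. The sh50 libraries lay above all others (log2 change 0.52, SE 0.07, edgeR adjusted p = 2.97e-06), and MCM7 was lower under sh52 than under sh50 (log2 change -0.41, SE 0.07, edgeR adjusted p = 0.000206). With ZHX2 hairpins it measured 239.5, 266 and 269 CPM under sh45, 269, 279 and 276 CPM under sh43 and 253, 253 and 246 CPM in shCtrl, and the rise under sh43 was small (log2 change 0.13, SE 0.05, edgeR adjusted p = 0.0182). MCM5 rose under sh50 (0.39 on the log2 scale, edgeR adjusted p = 0.00253) and under sh43 (log2 change 0.43, edgeR adjusted p = 5.7e-07). Of the calls on these subunits, that of MCM4 under sh52 was lost without shCtrl replicate 2 (edgeR, adjusted p from 0.00587 to 0.0767 over the alternatives), that of MCM7 under sh43 was lost without sh43 replicate 2 or shCtrl replicate 3 and with upper-quartile factors (edgeR, adjusted p from 0.00327 to 0.131 over the alternatives), and that of MCM2 under sh45 was lost without sh45 replicate 1 or shCtrl replicate 2, with upper-quartile factors and with no low-count filter (edgeR, adjusted p from 0.0226 to 0.122 over the alternatives). The sh45 call of MCM3 was lost in 12 of 17 alternatives, among them the 6 that left out sh43 replicate 1 or 2, sh45 replicate 1 or 3 or shCtrl replicate 2 or 3 (edgeR and DESeq2, adjusted p up to 0.164).

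The genes that switch the helicase on had a median log2 change of 0.62 under sh50, the highest of the 9 roles there, and of 0.60 under sh43, below the 0.67 of origin licensing. Of these 6 genes 5 rose under each of sh50 and sh43, where 10.2% and 33.5% of all genes did, and none passed under sh52. Under sh45 CDC45 and GINS1 rose while MCM10 fell, where 25.3% of all genes rose and 27.3% fell. CDC45, a part of the active helicase, measured 5.87, 5.33 and 6.82 CPM under sh52, 8.58, 9.93 and 9.31 CPM under sh50 and 5.77, 7.33 and 4.46 CPM in shCtrl. All sh50 libraries were above the others, and sh52 and shCtrl overlapped (sh50 log2 change 0.65, SE 0.18, edgeR adjusted p = 0.0094). The difference between the hairpins was the largest of the 47 genes in this experiment (sh52 over sh50 log2 change -0.63, SE 0.18, edgeR adjusted p = 0.0259). With ZHX2 hairpins CDC45 measured 21.3, 20.4 and 23.6 CPM under sh45, 25.02, 29.8 and 32.6 CPM under sh43 and 17.1, 16.7 and 17.8 CPM in shCtrl. It rose under sh45 (log2 change 0.34, SE 0.10, edgeR adjusted p = 0.00718) and sh43 (log2 change 0.76, SE 0.10, edgeR adjusted p = 2.21e-07), with no overlap between any groups.

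MCM10, which binds the helicase as it is activated, was the gene that most set the ZHX2 hairpins apart. It measured 11.2, 14.3 and 14.7 CPM under sh45, 25.5, 28.4 and 26.4 CPM under sh43 and 17.2, 15.7 and 18.1 CPM in shCtrl. It rose under sh43 (log2 change 0.66, SE 0.10, edgeR adjusted p = 3.28e-06), fell under sh45 (log2 change -0.35, SE 0.11, edgeR adjusted p = 0.0111) and differed between the hairpins in every library (sh45 over sh43 log2 change -1.002, SE 0.11, edgeR adjusted p = 4.99e-09). With USP13 hairpins MCM10 measured 8.20, 6.86 and 6.68 CPM under sh52, 9.30, 7.08 and 10.4 CPM under sh50 and 5.14, 6.08 and 6.06 CPM in shCtrl. Both hairpins' libraries lay above the controls, and the test passed under sh50 (log2 change 0.63, SE 0.18, edgeR adjusted p = 0.0108) and not under sh52 (log2 change 0.33, edgeR adjusted p = 0.257).

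GINS1, GINS2, GINS3 and GINS4 form the complex that joins CDC45 and the MCM ring. GINS2 measured 10.2, 7.43 and 10.2 CPM under sh52, 12.8, 12.2 and 13.7 CPM under sh50 and 7.87, 9.08 and 7.97 CPM in shCtrl. It was higher in every sh50 library (log2 change 0.63, SE 0.15, edgeR adjusted p = 0.00253) and lower under sh52 than under sh50 (log2 change -0.47, SE 0.15, edgeR adjusted p = 0.0374). GINS4, present at few counts, measured 5.30, 4.20 and 4.95 CPM under sh52, 5.99, 6.53 and 7.81 CPM under sh50 and 3.20, 5.39 and 4.62 CPM in shCtrl and rose under sh50 (log2 change 0.62, SE 0.21, edgeR adjusted p = 0.0318). GINS1 measured 33.04, 32.1 and 30.7 CPM under sh45, 40.5, 40.6 and 37.9 CPM under sh43 and 25.4, 25.8 and 24.8 CPM in shCtrl. Its 3 groups did not overlap, and it rose under sh45 (log2 change 0.33, SE 0.08, edgeR adjusted p = 0.000718) and sh43 (log2 change 0.65, SE 0.08, edgeR adjusted p = 2.7e-08). GINS3 rose under sh50 (0.58 on the log2 scale, edgeR adjusted p = 0.0119) and sh43 (log2 change 0.52, edgeR adjusted p = 0.00155). Among the calls on this role, that of CDC45 under sh50 was lost without shCtrl replicate 3 (edgeR, adjusted p from 0.00255 to 0.0611 over the alternatives), that of MCM10 under sh50 was lost without sh50 replicate 3 or shCtrl replicate 1 (edgeR, adjusted p from 0.00402 to 0.0876 over the alternatives), and that of GINS4 under sh50 was lost without sh50 replicate 2, sh50 replicate 3, shCtrl replicate 1 or shCtrl replicate 3 (edgeR, adjusted p from 0.0158 to 0.19 over the alternatives). In addition that of GINS3 under sh50 was lost without sh50 replicate 3 or shCtrl replicate 3 (edgeR, adjusted p from 0.00736 to 0.0591 over the alternatives), that of MCM10 under sh45 was lost without sh45 replicate 1 or shCtrl replicate 3 (edgeR, adjusted p from 0.00517 to 0.102 over the alternatives), that of CDC45 between sh52 and sh50 was lost without sh50 replicate 2, sh50 replicate 3 or sh52 replicate 2 (edgeR, adjusted p from 0.00821 to 0.117 over the alternatives), and that of GINS2 between sh52 and sh50 was lost without sh50 replicate 1, sh50 replicate 2, sh50 replicate 3 or sh52 replicate 2 and with the libraries of the compared groups alone (edgeR, adjusted p from 0.0245 to 0.152 over the alternatives).

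The PCNA clamp and the RFC proteins that load it rose in 3 of 5 genes under each of sh50 and sh43. Over all genes 10.2% rose under sh50 and 33.5% under sh43. Under sh45, 1 of the 5 rose, close to the 25.3% of all genes, and none did under sh52. PCNA measured 72.5, 62.7 and 63.4 CPM under sh52, 76.5, 77.5 and 71.6 CPM under sh50 and 62.6, 58.6 and 58.3 CPM in shCtrl. All libraries of both hairpins lay above the controls, and the test passed under sh50 alone (log2 change 0.33, SE 0.07, edgeR adjusted p = 0.00141). With ZHX2 hairpins PCNA measured 91.9, 108 and 107 CPM under sh45, 102, 121 and 124 CPM under sh43 and 105, 103 and 106 CPM in shCtrl, in overlapping groups. RFC3, a loader subunit, measured 9.19, 7.35 and 8.54 CPM under sh52, 11.1, 14.8 and 8.83 CPM under sh50 and 7.56, 8.02 and 7.09 CPM in shCtrl. Its sh50 libraries lay above the controls and were spread widely (log2 change 0.61, SE 0.17, edgeR adjusted p = 0.0115). With ZHX2 hairpins RFC3 measured 13.8, 17.1 and 17.8 CPM under sh45, 25.5, 26.9 and 24.96 CPM under sh43 and 13.9, 19.2 and 18.7 CPM in shCtrl. The sh43 libraries were higher than all others (log2 change 0.57, SE 0.11, edgeR adjusted p = 6.7e-05), and sh45 and shCtrl overlapped. RFC4 measured 34.5, 37.4 and 35.2 CPM under sh45, 34.03, 35.2 and 34.5 CPM under sh43 and 28.1, 27.4 and 29.5 CPM in shCtrl. It rose under sh45 (log2 change 0.33, SE 0.08, edgeR adjusted p = 0.000636) and sh43 (log2 change 0.29, SE 0.08, edgeR adjusted p = 0.00164).

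With USP13 hairpins RFC4 measured 16.9, 14.9 and 17.7 CPM under sh52, 21.4, 22.5 and 21.2 CPM under sh50 and 16.7, 15.2 and 16.7 CPM in shCtrl. It rose under sh50 (log2 change 0.42, SE 0.11, edgeR adjusted p = 0.00526) and stood lower under sh52 than under sh50 (log2 change -0.39, SE 0.11, edgeR adjusted p = 0.0204). RFC5 measured 11.7, 13.3 and 13.6 CPM under sh52, 15.6, 18.3 and 16.8 CPM under sh50 and 14.3, 14.5 and 13.5 CPM in shCtrl. It passed against shCtrl under neither hairpin, yet differed between them (log2 change -0.40, SE 0.12, edgeR adjusted p = 0.0328). RFC2 rose under sh43 alone (log2 change 0.57, edgeR adjusted p = 4.36e-06). Among these calls that of RFC3 under sh50 was lost without sh50 replicate 2 (edgeR, adjusted p from 0.00177 to 0.157 over the alternatives), that of RFC4 between sh52 and sh50 was lost without sh50 replicate 1, sh50 replicate 2 or sh52 replicate 2 (edgeR, adjusted p from 0.0173 to 0.0944 over the alternatives), and that of RFC5 between sh52 and sh50 was lost without sh50 replicate 2, sh50 replicate 3 or sh52 replicate 1 and with the libraries of the compared groups alone (edgeR, adjusted p from 0.0325 to 0.17 over the alternatives).

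The replicative polymerases moved unevenly. Of 8 polymerase and primase genes 4 rose under sh50 and 5 under sh43, where 10.2% and 33.5% of all genes did. Under sh45, 3 rose and 1 fell, where 25.3% of all genes rose and 27.3% fell, and none passed under sh52. POLE, the catalytic subunit of polymerase epsilon on the leading strand, measured 96.04, 95.8 and 96.1 CPM under sh45, 75.9, 87.8 and 76.3 CPM under sh43 and 67.3, 64.1 and 65.3 CPM in shCtrl. The groups did not overlap, and sh45 was highest (sh45 log2 change 0.55, SE 0.06, edgeR adjusted p = 4.59e-08, and sh43 log2 change 0.29, SE 0.06, edgeR adjusted p = 0.000262). POLE was one of 3 genes of the 47 that stood higher under sh45 than under sh43 (log2 change 0.26, SE 0.06, edgeR adjusted p = 0.000666). With USP13 hairpins POLE rose under sh50 (log2 change 0.50, SE 0.08, edgeR adjusted p = 6.67e-05). POLD1, the catalytic subunit of polymerase delta, measured 72.5, 72.3 and 76.5 CPM under sh45, 58.6, 69.1 and 68.3 CPM under sh43 and 55.6, 61 and 53.1 CPM in shCtrl. It rose under sh45 (log2 change 0.38, SE 0.07, edgeR adjusted p = 4.68e-05) and under sh43 with overlap (log2 change 0.21, SE 0.07, edgeR adjusted p = 0.0108), and was higher under sh45 than under sh43 (log2 change 0.18, SE 0.07, edgeR adjusted p = 0.0278).

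POLA2, the second subunit of the polymerase alpha and primase complex, measured 29.8, 31.5 and 32.1 CPM under sh45, 33.1, 33.2 and 34.97 CPM under sh43 and 21.9, 25.02 and 24.7 CPM in shCtrl. Both hairpins lay above control (sh45 log2 change 0.38, SE 0.08, edgeR adjusted p = 0.000323, and sh43 log2 change 0.50, SE 0.08, edgeR adjusted p = 6.07e-06). POLA1, the catalytic subunit of the same complex, fell under sh45 (log2 change -0.25, SE 0.09, edgeR adjusted p = 0.0167) and did not pass elsewhere. POLD2 measured 91.2, 96.01 and 101 CPM under sh52, 108, 112 and 118 CPM under sh50 and 87.98, 96.7 and 95.3 CPM in shCtrl, and it rose under sh50 (log2 change 0.27, SE 0.06, edgeR adjusted p = 0.00257) and sh43 (log2 change 0.29, edgeR adjusted p = 1.68e-05). POLE2 and the primase subunit PRIM1 passed under no hairpin, and PRIM2, of which the genome holds a partial copy that may share reads, rose under sh43 alone (log2 change 0.47, edgeR adjusted p = 0.0242). Among these calls that of POLD1 under sh43 was lost without sh43 replicate 2, sh43 replicate 3 or shCtrl replicate 3 (edgeR, adjusted p from 0.0003 to 0.0726 over the alternatives), that of POLD1 between sh45 and sh43 was lost without sh43 replicate 1 or sh45 replicate 3 and with DESeq2 (edgeR unless named, adjusted p from 0.00271 to 0.23 over the alternatives), and that of POLA1 under sh45 was lost without sh45 replicate 1, sh45 replicate 2 or shCtrl replicate 1 (edgeR, adjusted p from 0.00919 to 0.104 over the alternatives). Also, that of PRIM2 under sh43 was lost without sh43 replicate 2, sh43 replicate 3 or shCtrl replicate 2 (edgeR, adjusted p from 0.00444 to 0.0643 over the alternatives).

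LIG1, the ligase that seals lagging strand fragments, moved in opposite directions under the ZHX2 hairpins. It measured 56.7, 58.2 and 64.6 CPM under sh45, 35.5, 38.7 and 36.9 CPM under sh43 and 45.2, 45.1 and 47.1 CPM in shCtrl. It rose under sh45 (log2 change 0.39, SE 0.07, edgeR adjusted p = 3.41e-05) and fell under sh43 (log2 change -0.31, SE 0.07, edgeR adjusted p = 0.00048), and no group overlapped another. LIG1 was thus higher under sh45 than under sh43 (log2 change 0.69, SE 0.07, edgeR adjusted p = 2.08e-09). With USP13 hairpins LIG1 measured 27.6, 27.1 and 27.3 CPM under sh52, 35.9, 33.1 and 39.4 CPM under sh50 and 27.7, 27.9 and 24.95 CPM in shCtrl. It rose under sh50 (log2 change 0.43, SE 0.09, edgeR adjusted p = 0.00112) and stood lower under sh52 than under sh50 (log2 change -0.40, SE 0.09, edgeR adjusted p = 0.00483), while sh52 and shCtrl overlapped.

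In the single-strand binding complex RPA, the subunits RPA2 and RPA3 rose under both ZHX2 hairpins and passed under neither USP13 hairpin. RPA2 measured 59.8, 55.01 and 54.9 CPM under sh45, 55.4, 58.4 and 65.1 CPM under sh43 and 44.9, 44.7 and 42 CPM in shCtrl, with both hairpins above control and overlapping each other (sh45 log2 change 0.37, SE 0.07, edgeR adjusted p = 8.86e-05, and sh43 log2 change 0.44, SE 0.07, edgeR adjusted p = 4.06e-06). Its USP13 experiment values were 35.2, 39.4 and 38.2 CPM under sh52, 38.4, 35.4 and 39.6 CPM under sh50 and 36.7, 37.5 and 35.4 CPM in shCtrl, in overlapping groups. RPA3 measured 38.5, 42.95 and 40.1 CPM under sh45, 38.6, 35.96 and 40.9 CPM under sh43 and 31.7, 32.9 and 33.01 CPM in shCtrl and likewise rose under sh45 (log2 change 0.31, SE 0.08, edgeR adjusted p = 0.00101) and sh43 (log2 change 0.24, SE 0.08, edgeR adjusted p = 0.00697). In the USP13 experiment RPA3 measured 22.8, 20.3 and 19.8 CPM under sh52, 24.9, 26.2 and 20.4 CPM under sh50 and 21.7, 26 and 22.4 CPM in shCtrl, and again the groups overlapped. RPA1 (log2 change 0.26, edgeR adjusted p = 0.000384) and the flap endonuclease FEN1 (log2 change 0.57, edgeR adjusted p = 6.24e-09) rose under sh43 alone.

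**Figure D3:**
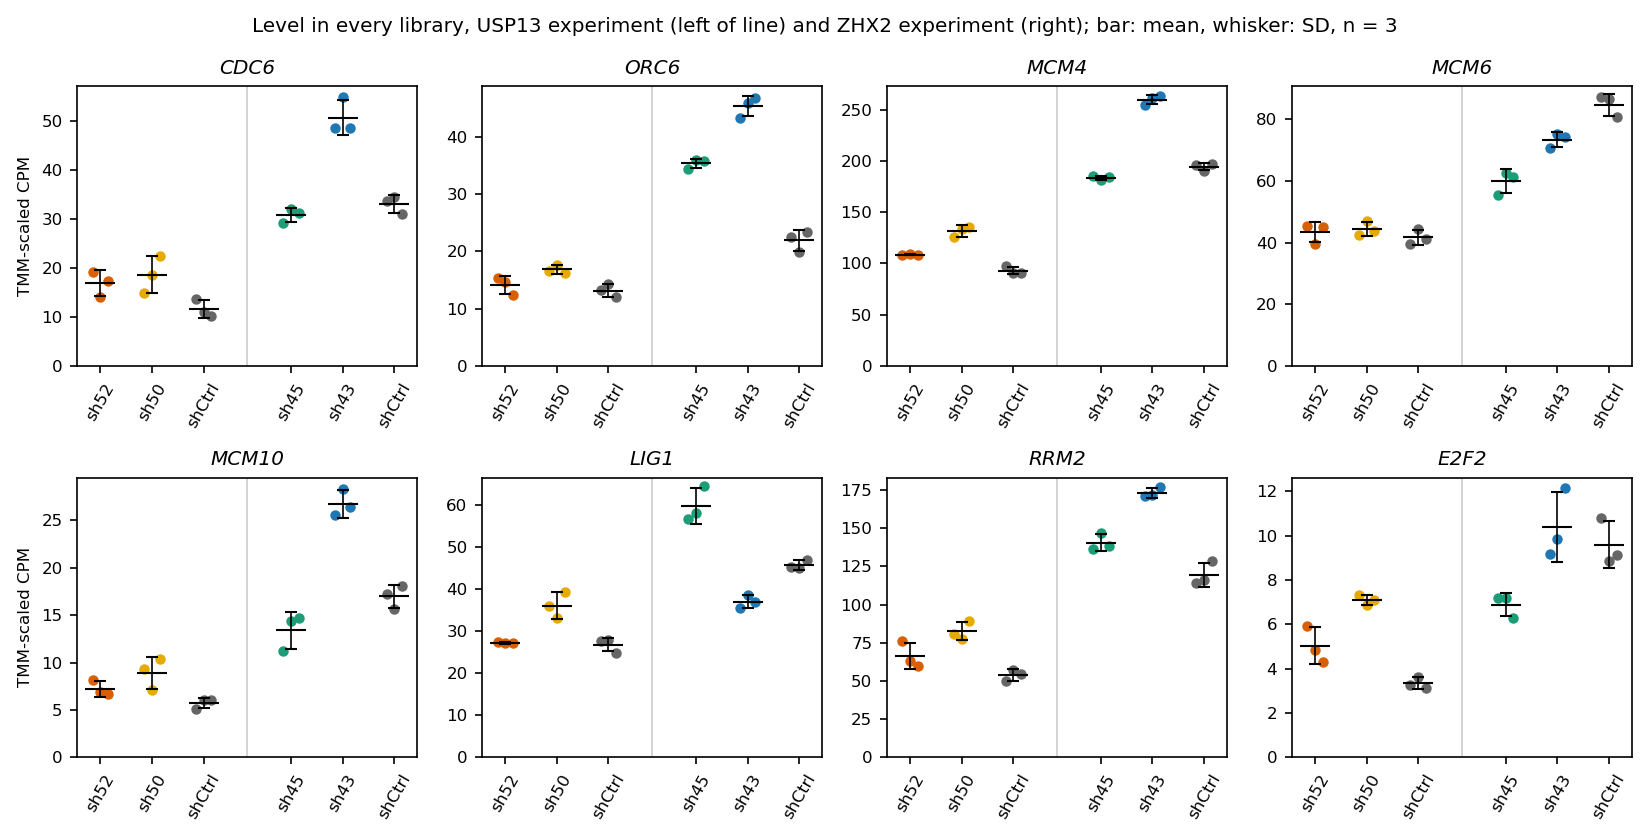
Level (TMM-scaled CPM) of 8 genes in every library, 1 point per library, with the group mean as a bar and the SD as a whisker, the USP13 experiment left and the ZHX2 experiment right of the line. RRM2 is above control in every hairpin library of both experiments, MCM6 is below control in every sh45 and sh43 library, and LIG1 is above control under sh45 and below it under sh43.

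Of the nucleotide supply genes, all 4 rose under sh43, where 33.5% of all genes did. RRM2 alone rose under sh45, sh50 and sh52, where 25.3%, 10.2% and 5.45% of all genes did. RRM2, the subunit of ribonucleotide reductase whose level follows S phase, measured 76.01, 63.2 and 59.7 CPM under sh52, 80.9, 77.6 and 89.4 CPM under sh50 and 50.03, 57.3 and 54.4 CPM in shCtrl. All hairpin libraries lay above control, and the sh50 libraries above those of sh52 (sh52 log2 change 0.30, SE 0.08, edgeR adjusted p = 0.0207, and sh50 log2 change 0.62, SE 0.08, edgeR adjusted p = 5.38e-06). With ZHX2 hairpins RRM2 measured 137, 147 and 138 CPM under sh45, 171, 171 and 177 CPM under sh43 and 114, 116 and 128 CPM in shCtrl. The order was the same, sh43 above sh45 above control, without overlap (sh45 log2 change 0.23, SE 0.05, edgeR adjusted p = 0.000785, and sh43 log2 change 0.54, SE 0.05, edgeR adjusted p = 2.09e-09).

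TYMS, the thymidylate synthase, measured 37.5, 41.9 and 40.5 CPM under sh52, 43.6, 44.6 and 47.4 CPM under sh50 and 47.5, 49.5 and 46.8 CPM in shCtrl. It was the only gene of the 47 that fell under a USP13 hairpin (sh52 log2 change -0.26, SE 0.08, edgeR adjusted p = 0.027), and its sh50 libraries overlapped the controls. With ZHX2 hairpins TYMS measured 111, 118 and 107 CPM under sh45, 136, 147 and 142 CPM under sh43 and 109, 124 and 116 CPM in shCtrl, and it rose under sh43 (log2 change 0.28, SE 0.06, edgeR adjusted p = 0.000103). TK1, the thymidine kinase of the salvage pathway, measured 96.04, 97.2 and 93.05 CPM under sh45, 121, 119 and 123 CPM under sh43 and 99.1, 103 and 94.8 CPM in shCtrl and rose under sh43 (log2 change 0.29, SE 0.06, edgeR adjusted p = 4.59e-05). Its USP13 experiment values were 56, 63.4 and 68.5 CPM under sh52, 72.4, 72.9 and 72.3 CPM under sh50 and 65.9, 78.9 and 69.3 CPM in shCtrl. Each USP13 hairpin overlapped shCtrl, and all sh52 libraries lay below all sh50 libraries. RRM1, the large reductase subunit, rose under sh43 alone (log2 change 0.37, edgeR adjusted p = 4.78e-06). Among these calls the call of TYMS under sh52 was lost without sh52 replicate 1, sh52 replicate 3, shCtrl replicate 1 or shCtrl replicate 2 (edgeR, adjusted p from 0.0218 to 0.118 over the alternatives).

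Of the genes that govern entry into S phase, E2F1 and E2F2 moved and CCNE2 did not pass under any hairpin. E2F2 had the largest log2 change of the set under sh50. It measured 5.94, 4.85 and 4.31 CPM under sh52, 7.33, 6.87 and 7.09 CPM under sh50 and 3.27, 3.63 and 3.11 CPM in shCtrl. Every hairpin library lay above the controls, and the test passed under sh50 (log2 change 1.08, SE 0.20, edgeR adjusted p = 0.000234) and not under sh52 (log2 change 0.59, edgeR adjusted p = 0.0625). With ZHX2 hairpins E2F2 measured 7.20, 7.17 and 6.29 CPM under sh45, 9.16, 9.84 and 12.2 CPM under sh43 and 10.8, 8.85 and 9.13 CPM in shCtrl. It fell under sh45 (log2 change -0.48, SE 0.15, edgeR adjusted p = 0.00878), while sh43 and shCtrl overlapped.

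E2F1 measured 15.6, 15.7 and 18.4 CPM under sh52, 22.7, 25.4 and 21.6 CPM under sh50 and 13.9, 15.8 and 18.1 CPM in shCtrl. It rose under sh50 (log2 change 0.55, SE 0.12, edgeR adjusted p = 0.00118), and was lower under sh52 than under sh50 (log2 change -0.48, SE 0.12, edgeR adjusted p = 0.00802). With ZHX2 hairpins E2F1 measured 62.5, 70.3 and 75.4 CPM under sh45, 81.5, 77.7 and 78.7 CPM under sh43 and 49.9, 57.2 and 51.3 CPM in shCtrl. All 3 groups were apart, and E2F1 rose under sh45 (log2 change 0.39, SE 0.07, edgeR adjusted p = 4.3e-05) and sh43 (log2 change 0.59, SE 0.07, edgeR adjusted p = 4.46e-08). CCNE1, the cyclin that activates CDK2 at S-phase entry, measured 9.75, 8.67 and 11.9 CPM under sh45, 13.2, 13.99 and 16.5 CPM under sh43 and 10.6, 9.07 and 9.88 CPM in shCtrl. It rose under sh43 (log2 change 0.56, SE 0.13, edgeR adjusted p = 0.000577) and was lower under sh45 than under sh43 (log2 change -0.52, SE 0.13, edgeR adjusted p = 0.00117). Among these, the call of E2F2 under sh45 was lost without shCtrl replicate 1 (edgeR, adjusted p from 0.00588 to 0.056 over the alternatives), and that of E2F1 between sh52 and sh50 was lost without sh50 replicate 2 (edgeR, adjusted p from 0.00137 to 0.0687 over the alternatives).

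The genes of chromatin assembly and S-phase turnover rose in 5 of 5 under sh43 and in 3 of 5 under sh50. Among all genes 33.5% and 10.2% did. CHAF1A, the large subunit of the chaperone that deposits histones behind the fork, measured 61.1, 66.2 and 68.95 CPM under sh45, 77.5, 72.9 and 72.4 CPM under sh43 and 49.9, 56.9 and 49.8 CPM in shCtrl. It rose under sh45 (log2 change 0.33, SE 0.07, edgeR adjusted p = 0.000254) and sh43 (log2 change 0.51, SE 0.07, edgeR adjusted p = 2.42e-07). It rose under sh50 too (log2 change 0.48, SE 0.10, edgeR adjusted p = 0.000526), while under sh52 it did not pass (log2 change 0.27, SE 0.10, edgeR adjusted p = 0.0699). DTL, which directs the ubiquitin ligase that removes CDT1 in S phase, rose under sh50 (0.44 on the log2 scale, edgeR adjusted p = 0.00995) and sh43 (log2 change 0.40, edgeR adjusted p = 0.000189). UHRF1, which brings the maintenance methyltransferase to new DNA, rose under sh50 (0.29 on the log2 scale, edgeR adjusted p = 0.0315) and sh43 (log2 change 0.48, edgeR adjusted p = 1.81e-07). CHAF1B and SLBP, which binds the stem-loop of histone mRNAs, rose under sh43 alone, with log2 changes of 0.21 and 0.34 (edgeR, adjusted p = 0.0275 and 5.94e-06). Among these calls that of DTL under sh50 was lost without sh50 replicate 1 or shCtrl replicate 3 (edgeR, adjusted p from 0.00519 to 0.0578 over the alternatives), and that of UHRF1 under sh50 was lost without sh50 replicate 2, sh50 replicate 3, shCtrl replicate 1 or shCtrl replicate 3 (edgeR, adjusted p from 0.0109 to 0.135 over the alternatives). Also, that of CHAF1B under sh43 was lost without sh43 replicate 2, sh43 replicate 3, shCtrl replicate 1 or shCtrl replicate 3 and with upper-quartile factors (edgeR, adjusted p from 0.0147 to 0.121 over the alternatives).

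Set against each other, the hairpins of each target differed across the replication genes. Of the 47 genes 12 were lower under sh52 than under sh50 and none higher, where 4.73% of all genes were lower and 5.49% higher, and the median difference was -0.23 (log2). All sh52 libraries lay below all sh50 libraries for 23 genes and above for 1, against 13.1% and 13.9% of all genes. The 12 were CDC45, CDT1, E2F1, GINS2, MCM7, LIG1, RFC5, RFC4, RRM2, MCM4, POLE and POLD2. In the ZHX2 experiment 33 were lower under sh45 than under sh43 and 3 higher, where 32.7% of all genes were lower and 34.2% higher, with a median of -0.31. All sh45 libraries lay below all sh43 libraries for 32 and above for 3, against 34.5% and 35.8% of all genes. The 3 higher genes were LIG1, POLE and POLD1. After MCM10, the largest differences were in CDC6 (log2 change -0.72, SE 0.08, edgeR adjusted p = 4.52e-09), ORC1 (log2 change -0.68, SE 0.11, edgeR adjusted p = 5.71e-06), RFC3 (log2 change -0.67, SE 0.11, edgeR adjusted p = 9.78e-06) and MCM2 (log2 change -0.65, SE 0.05, edgeR adjusted p = 2.25e-11). ZHX2 mRNA itself was higher under sh45 than under sh43 (log2 difference 1.06), and the share of mitochondrial rRNA was higher as well, and the part of either was not tested. Without sh52 replicate 1, 11 genes were lower under sh52 than under sh50, 2 rose under sh52 (MCM4 and CHAF1A) and none fell. Leaving out sh50 replicate 2 left 5 genes lower under sh52 than under sh50, and leaving out sh50 replicate 3 left 7.

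**Figure D4:**
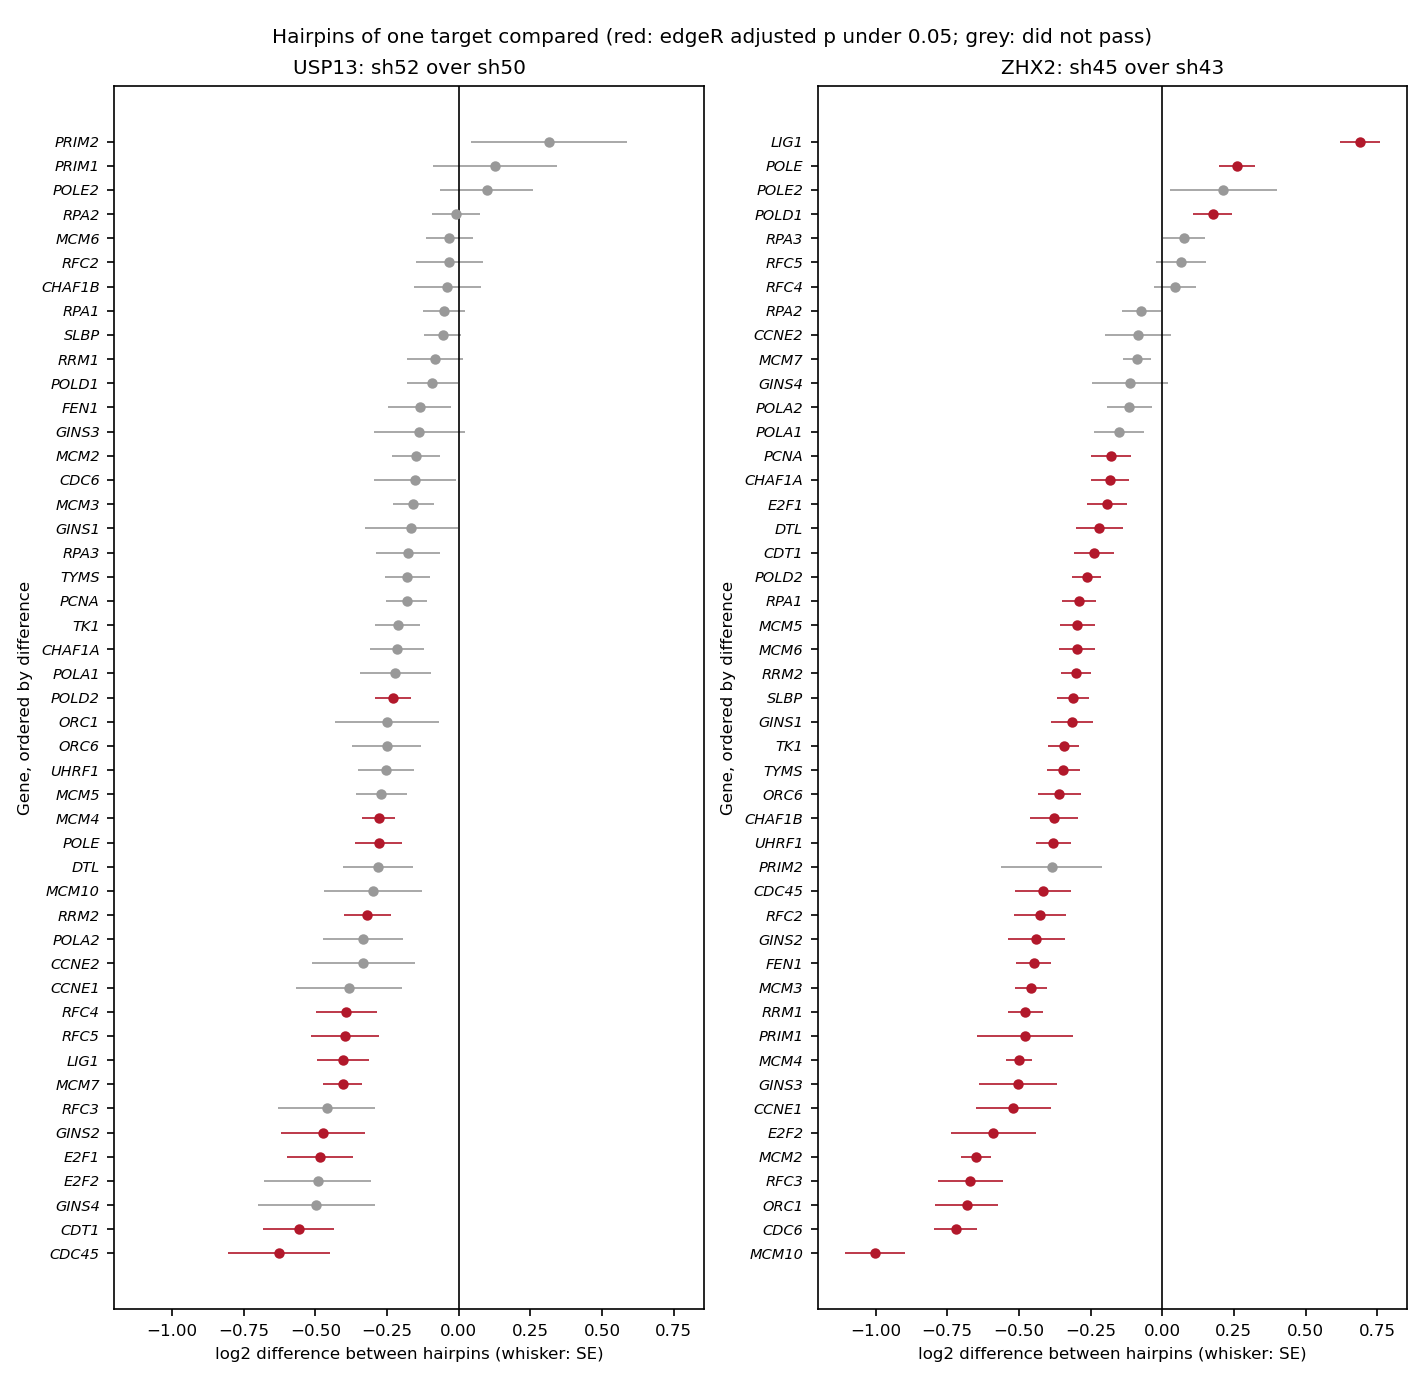
Log2 difference between the hairpins of each target for the 47 genes, sh52 over sh50 and sh45 over sh43, with standard errors and calls at an edgeR adjusted p under 0.05. Most genes lie below 0 in both comparisons, with 12 called lower between the USP13 hairpins and 33 between the ZHX2 hairpins, and LIG1, POLE and POLD1 are the called genes above 0.

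The mean response to the USP13 hairpins was tested against the mean response to the ZHX2 hairpins, each against its own controls, in a fit of all 18 libraries. Of the 47 genes 10 differed, 4 in the direction of a higher response to USP13 hairpins and 6 of a lower one, where 22.7% and 20.7% of 14200 genes did. E2F2 differed most, with mean log2 responses of 0.83 to USP13 hairpins against -0.18 to ZHX2 hairpins and a fitted difference of 1.00 (SE 0.21, edgeR adjusted p = 0.000162). ORC6 went the other way, with 0.23 to USP13 hairpins against 0.87 to ZHX2 hairpins and a difference of -0.66 (SE 0.12, edgeR adjusted p = 4.02e-05). For MCM6 the responses were 0.07 to USP13 hairpins against -0.35 to ZHX2 hairpins, with a difference of 0.41 (SE 0.09, edgeR adjusted p = 0.000209). RPA2 (0.04 to USP13 hairpins against 0.41 to ZHX2 hairpins, difference -0.38 (SE 0.09, edgeR adjusted p = 0.00118)) and RPA3 (-0.07 to USP13 hairpins against 0.28 to ZHX2 hairpins, difference -0.36 (SE 0.12, edgeR adjusted p = 0.012)) responded to the ZHX2 hairpins more. TYMS had responses of -0.17 to USP13 hairpins against 0.11 to ZHX2 hairpins (difference -0.30 (SE 0.08, edgeR adjusted p = 0.00212)), and MCM7 of 0.31 to USP13 hairpins against 0.09 to ZHX2 hairpins (difference 0.21 (SE 0.07, edgeR adjusted p = 0.0169)). Of these calls, that of MCM7 between the responses was lost without USP13 shCtrl replicate 1 (edgeR, adjusted p from 0.00583 to 0.116 over the alternatives), and that of RPA3 between the responses was lost without USP13 shCtrl replicate 2 (edgeR, adjusted p from 0.00515 to 0.0853 over the alternatives). Without USP13 shCtrl replicate 2 the count of genes that differed was 6.

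Other genes of replication were listed separately. Of 40 such genes 4 rose and 2 fell under sh52, where 5.45% of all genes rose and 6.57% fell. Under sh50, 11 rose and 2 fell, where 10.2% of all genes rose and 11.3% fell. Under sh45, 16 rose and 8 fell, where 25.3% of all genes rose and 27.3% fell. Under sh43, 26 rose and 6 fell, where 33.5% of all genes rose and 35.3% fell. The share of the 40 that rose was 27.5% under sh50 and 40% under sh45, against 10.2% and 25.3% of all genes. For the 47 genes it was 57.4% and 29.8%, and whether the lists differ was not tested. CHTF18, a subunit of an alternative clamp loader, rose under all 4 hairpins, by a log2 change of 0.31 under sh52, 0.80 under sh50, 1.24 under sh45 and 0.50 under sh43 (edgeR, adjusted p at most 0.0417). DNA2, a nuclease and helicase that trims flaps (log2 change 0.75, SE 0.10, edgeR adjusted p = 4.41e-06), and TICRR, which brings CDC45 to origins (log2 change 0.71, SE 0.15, edgeR adjusted p = 0.000725), rose under sh50. SAMHD1, which breaks down nucleotides, fell under sh52 (log2 change -0.37), sh50 (-0.63) and sh45 (-0.80; edgeR, adjusted p = 0.00102, 6.65e-07 and 3.17e-10). E2F7, a repressive E2F factor, rose under sh45 (log2 change 1.19, SE 0.08, edgeR adjusted p = 7.88e-13) and sh43 (log2 change 1.38, SE 0.08, edgeR adjusted p = 1.2e-14). CLSPN, a fork protection protein (log2 change 1.02, SE 0.09, edgeR adjusted p = 2.28e-10), the phosphatase gene CDC25A (log2 change 1.08, SE 0.12, edgeR adjusted p = 6.05e-09) and the polymerase epsilon subunit POLE4 (log2 change 1.24, SE 0.14, edgeR adjusted p = 1.85e-08) rose under sh43, and all were lower under sh45 than under sh43 (log2 differences -0.98, -1.003 and -0.87). POLE4 rose under sh45 too.

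Genes of mitosis, which act after replication, did not follow the replication genes in every comparison. Of 26 such genes 5 fell and none rose under sh52 (median log2 change -0.17), where 6.57% of all genes fell and 5.45% rose. Under sh50, 6 rose and 1 fell (median 0.16), where 10.2% and 11.3% of all genes did. Under sh45, 21 rose and none fell (0.32), where 25.3% and 27.3% of all genes did. Under sh43, 19 rose and 1 fell (0.46), where 33.5% and 35.3% of all genes did. Under sh45 the mitotic genes thus rose while the replication genes had a median of 0.08, and whether the lists differ was not tested. Between the USP13 hairpins both lists were lower under sh52. Of the 26, 14 were lower than under sh50 and none higher (median -0.34), where 4.73% and 5.49% of all genes were. Between the ZHX2 hairpins 10 were lower under sh45 than under sh43 and 7 higher (median -0.11), where 32.7% and 34.2% of all genes were. AURKB, the kinase of the chromosomal passenger complex, rose under sh45 (log2 change 0.99, SE 0.07, edgeR adjusted p = 4.67e-12) and sh43 (log2 change 1.15, SE 0.07, edgeR adjusted p = 7.65e-14). PTTG1, the securin that restrains chromatid separation, rose under sh45 (log2 change 1.13, SE 0.07, edgeR adjusted p = 2.72e-13) and sh43 (log2 change 0.86, SE 0.07, edgeR adjusted p = 3.25e-11). CCNB2, a mitotic cyclin (log2 change -0.63, SE 0.11, edgeR adjusted p = 0.000436), and HMMR, a spindle protein (log2 change -0.60, SE 0.10, edgeR adjusted p = 0.000197), fell under sh52. HMMR fell under sh50 as well and moved in opposite directions under the ZHX2 hairpins, while CCNB2 rose under both ZHX2 hairpins. Replication-dependent histones, whose mRNAs mostly end without a poly(A) tail, reached the tested genes in 7 of 12 cases with USP13 hairpins and 6 with ZHX2 hairpins. Of these, 3 fell under sh45, where 27.3% of all genes did. They were H2AC6 (log2 change -1.54), H2BC5 (-1.35) and H2BC12 (-1.03), with edgeR adjusted p = 7.5e-08, 4.99e-07 and 1.63e-09. SLBP was 0.03 from control under sh45 and did not pass. Under sh43, H2AC6 (-0.84) and H2BC5 (-0.63) fell as well, while H2BC12 rose (0.49; edgeR, adjusted p = 9.64e-05, 0.00177 and 2.26e-05). Under sh52, 3 of the 7 rose, where 5.45% of all genes did, and under sh50 none passed.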

How the data were processed

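Each deposited file held, per the file headers, 1 library's RefSeq transcripts with length, effective length, TPM and estimated counts as Salmon writes them. Tools listed in the submitters' processing notes, with no role or order, are Salmon 0.11.3, STAR 2.5.2b, DESeq2 1.14.1 and cutadapt 1.12, beside build hg19. The estimated counts the authors deposited were not scaled for depth and were whole numbers. The deposited TPM values, scaled by the authors to 1 total per library, were used for levels between genes, for the controls of both experiments and for marker lists. The deposited effective lengths entered 1 alternative as offsets. The TruSeq kit named in the labels does not mark strand, so antisense reads cannot be told apart, and copies of a gene may share reads.

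Estimated counts were rounded and summed to 27064 genes, of 60422 transcripts, 59301 named from RefSeq and 684 from GENCODE. The 437 unnamed transcripts held at most 0.1204% of counts and were left out. edgeR 4.0.16 (R 4.3.3) was used with filterByExpr, TMM factors, 1 mean per group and the quasi-likelihood F-test, on 9 libraries per experiment or all 18, with Benjamini-Hochberg adjustment over all 13708, 13597 or 14200 genes tested. "Rose" and "fell" refer to genes past an adjusted p of 0.05. Scripts were tested on simulated data. Levels are TMM-scaled CPM. Replicate pairs differed by a chi-square per degree of freedom of 2.333 to 6.682 and all were kept. DESeq2 1.42.0 and the other alternatives are in the closing part. No list test was run. The 47 genes and the other lists were chosen with earlier results of these data known. Library values are printed for genes called under both hairpins of a target, the up to 8 called genes of largest absolute log2 change per comparison, and the highest and lowest control level. From each other list up to 4 genes per comparison are named.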

Additional observations from a re-analysis of the deposited data

Results flagged for a closer look

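The responses to the USP13 and to the ZHX2 hairpins differed, by a test of the difference itself, in 10 of the 47 replication genes. The USP13 response was the higher in 4 and the lower in 6, 8.51% and 12.8% of the 47, against 22.7% and 20.7% of 14200 genes, so the share was below that of all genes in both directions. The fitted difference, USP13 response minus ZHX2 response on the log2 scale (edgeR, fit of all 18 libraries), was positive in 4 of them. E2F2, an activating E2F factor, differed by 1.00 (SE 0.21, edgeR adjusted p = 0.000162), with mean responses of 0.83 to USP13 hairpins against -0.18 to ZHX2 hairpins. Among helicase subunits MCM6 differed by 0.41 (SE 0.09, edgeR adjusted p = 0.000209), MCM7 by 0.21 (SE 0.07, edgeR adjusted p = 0.0169) and MCM4 by 0.18 (SE 0.06, edgeR adjusted p = 0.0182). In the other direction ORC6 of the origin recognition complex differed by -0.66 (SE 0.12, edgeR adjusted p = 4.02e-05). For the single-strand binding proteins the difference was -0.38 (SE 0.09, edgeR adjusted p = 0.00118) in RPA2 and -0.36 (SE 0.12, edgeR adjusted p = 0.012) in RPA3. The thymidylate genes TYMS and TK1 differed by -0.30 (SE 0.08, edgeR adjusted p = 0.00212) and -0.22 (SE 0.08, edgeR adjusted p = 0.0298), and SLBP by -0.19 (SE 0.07, edgeR adjusted p = 0.0335). Of these, that of MCM4 between the responses was lost without USP13 shCtrl replicate 2 or USP13 shCtrl replicate 3 and with no low-count filter (edgeR, adjusted p from 0.00729 to 0.0604 over the alternatives). Likewise that of TK1 between the responses was lost without USP13 sh52 replicate 1, USP13 shCtrl replicate 2, ZHX2 sh45 replicate 2, ZHX2 shCtrl replicate 1 or ZHX2 shCtrl replicate 3 and with upper-quartile factors (edgeR, adjusted p from 0.0114 to 0.207 over the alternatives), and that of SLBP between the responses was lost without USP13 sh52 replicate 3, USP13 shCtrl replicate 1, USP13 shCtrl replicate 2, ZHX2 sh43 replicate 3, ZHX2 sh45 replicate 2, ZHX2 sh45 replicate 3 or ZHX2 shCtrl replicate 3 and with upper-quartile factors (edgeR, adjusted p from 0.00887 to 0.174 over the alternatives). Each response is the mean over a pair of hairpins that themselves differed, and target and experiment cannot be told apart beyond each experiment's own controls.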

How the results depend on the processing

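No log2 change of the 47 genes turned its direction while called under any alternative run. The alternatives were other size factors, no filter or a stricter filter on low counts, DESeq2, effective-length offsets, the compared groups alone, the replicate block and leaving out each library. Leaving out 1 library in turn gave between 1 and 4 called genes for sh52 against shCtrl, 19 to 28 for sh50 against shCtrl and 5 to 13 for sh52 against sh50. It gave 18 to 20 for sh45 against shCtrl, 35 to 40 for sh43 against shCtrl, 33 to 38 for sh45 against sh43 and 6 to 11 for the difference of responses. The lowest count for sh52 came without USP13 shCtrl replicate 2, that for sh52 against sh50 without sh50 replicate 2, and that for the responses without USP13 shCtrl replicate 2. Counts also moved by more than 1.5 times for sh52 against sh50 without sh50 replicate 3 (7 genes). For sh52 against shCtrl they did so without sh52 replicate 1, sh52 replicate 3 or shCtrl replicate 1 (2 genes each). The alternatives that left out no library stayed within 1.5 times the reported counts. Of the called genes, 0 of 4 passed in every alternative for sh52, 15 of 27 for sh50, 4 of 12 for sh52 against sh50, 15 of 20 for sh45, 35 of 39 for sh43, 30 of 36 for sh45 against sh43 and 5 of 10 for the responses. Over all genes the sh52 count of 1647 became 1023 without USP13 shCtrl replicate 1 and 990 without replicate 2. The count of 1401 for sh52 against sh50 became 838 without sh50 replicate 1 and 684 without sh50 replicate 2. Same-numbered libraries did not deviate together, with correlations of residuals from -0.2002 to 0.09802. Low correlations cannot show that such libraries were handled apart, so whether the numbers pair the libraries stays unknown. With the replicate number as a block, 4 genes were called for sh52, 27 for sh50, 12 for sh52 against sh50, 19 for sh45, 39 for sh43, 37 for sh45 against sh43 and 10 for the responses, and it ended the sh45 call of MCM3 (log2 change -0.13, edgeR adjusted p = 0.0566). PRIM2, PRIM1 and POLE2 were among the genes with the widest errors, so differences in them were detectable only when large.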
